A study of Rattus norvegicus with 14 samples.

Results

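The transcripts of the aryl hydrocarbon receptor, its partner and brake, and the 3 cytochrome P450 genes of its CYP1 family were followed through 4 states of rat liver. The 6 genes, Ahr, Arnt, Ahrr, Cyp1a1, Cyp1a2 and Cyp1b1, were taken by name from 14497 genes with a symbol of their own on the array, and each was read by a single probe set. The samples were regions of fixed, embedded liver isolated by laser capture from 12 male rats of the inbred F344 strain, with 3 animals in each group. The labels give no ages.

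The normal livers were those of adult rats that had not been manipulated. For AAF/PH liver, a 2.5 mg pellet of 2-acetylaminofluorene (AAF) that released over 14 days was implanted on day 1, part of the liver was resected on day 7, and the rats were killed on day 14. AAF is an aromatic amide carcinogen that is activated by P450 enzymes and blocks hepatocyte division, and the labels describe these samples as oval cells, the liver's progenitor cells. Foci were raised by the Solt-Farber protocol of chemical liver carcinogenesis. Rats received diethylnitrosamine at 200 mg/kg on day 1 and the same kind of AAF pellet on day 14. On day 21 they underwent partial hepatectomy and were given a pellet that released placebo, or rapamycin at 2.5 mg/kg per day, over 21 days. Persistent lesions that stained for GSTP, the placental form of glutathione S-transferase, were captured on day 70. Both foci groups and the AAF/PH group had therefore carried AAF and undergone hepatectomy, and both foci groups had received diethylnitrosamine. AAF/PH livers were taken on day 14, at about the end of AAF release and soon after hepatectomy. Foci were captured on day 70, long after both. In comparisons of foci with AAF/PH liver, this difference in time cannot be told apart from the kind of tissue. The rapamycin pellet's release ended before the foci were captured. Rapamycin animal 3 was measured on 3 arrays, the last of them from a new laser capture, and these were averaged into 1 value.

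The aryl hydrocarbon receptor (AhR, encoded by Ahr) is a ligand-activated transcription factor of the bHLH-PAS family that rests in the cytoplasm with chaperones. After it binds a planar aromatic ligand it enters the nucleus, pairs with ARNT and binds DNA at xenobiotic response elements, where it switches on CYP1 genes, other detoxifying enzymes and its own repressor, encoded by Ahrr. In liver, Cyp1a2 is made constitutively by hepatocytes, mostly around the central vein, Cyp1a1 is low until a ligand arrives, and Cyp1b1 is best known from mesenchymal and other extrahepatic cells. CYP1A2 also carries out the N-hydroxylation of AAF.

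Promoter windows were found in RefSeq (build GRCr8) for 5 of the 6 genes, all but Cyp1a1. They run from 250 bases before to 50 bases after the start of the gene. The windows of Ahrr, Cyp1b1 and Cyp1a2 are shown because these are the repressor and CYP1 genes that were called in AAF/PH liver, the first pair higher and Cyp1a2 lower. Capitals mark GCGTG, the core of the response element bound by the AhR and ARNT pair (CACGC where it lies on the opposite strand), and in Cyp1a2 the TATAAA box. Ahrr lies at chr1:30821969-30822268 on the plus strand, Cyp1b1 at chr6:21094315-21094614 on the plus strand, and Cyp1a2 at chr8:66978100-66978399 on the minus strand.
Ahrr: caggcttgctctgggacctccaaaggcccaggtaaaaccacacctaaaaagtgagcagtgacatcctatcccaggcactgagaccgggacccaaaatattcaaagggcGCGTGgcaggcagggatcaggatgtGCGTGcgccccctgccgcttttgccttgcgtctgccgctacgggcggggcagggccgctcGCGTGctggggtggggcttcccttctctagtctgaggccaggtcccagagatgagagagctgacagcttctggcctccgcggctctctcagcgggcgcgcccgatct
Cyp1b1: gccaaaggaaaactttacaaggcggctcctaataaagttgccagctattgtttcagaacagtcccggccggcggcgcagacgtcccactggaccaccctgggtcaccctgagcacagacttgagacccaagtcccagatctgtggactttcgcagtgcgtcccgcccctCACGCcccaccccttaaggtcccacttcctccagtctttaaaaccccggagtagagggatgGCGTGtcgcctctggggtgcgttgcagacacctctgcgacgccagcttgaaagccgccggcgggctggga
Cyp1a2: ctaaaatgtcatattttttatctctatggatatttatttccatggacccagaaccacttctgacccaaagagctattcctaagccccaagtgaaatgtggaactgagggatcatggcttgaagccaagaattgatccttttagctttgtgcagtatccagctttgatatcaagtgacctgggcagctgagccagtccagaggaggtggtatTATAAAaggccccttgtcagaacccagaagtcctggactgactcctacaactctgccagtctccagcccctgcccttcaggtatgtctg
Both strands were searched. The Ahrr window held GCGTG at 3 places, at -142, -117 and -57 from the start, and the longer motif TNGCGTG, which contains the core, at -59. The Cyp1b1 window held the core at -81 on the opposite strand and at -20 on its own strand, with TNGCGTG at -22. The Cyp1a2 window held TATAAA at -39 and no GCGTG, and the Ahr window held none of these motifs. The window of Arnt, which was also called lower in AAF/PH liver, held GCGTG at -42. Among all 33469 windows of 300 bases, 29.7% held GCGTG, 4.89% held TNGCGTG and 14.2% held TATAAA, so that a core alone is a common match. These matches describe letters in the windows and no binding was measured. The windows shown were chosen by the calls, and whether the motif goes with the direction of a call was not tested. Cyp1a1 and Cyp1a2 are next to each other in RefSeq's gene order.

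Over the 6 genes, 3 moved with the state of the liver by more than the spread between animals in more than 1 comparison, and these were Cyp1a2, Arnt and Cyp1b1. A gene was called at a limma adjusted p under 0.05 over all genes. Against normal liver, 2 of the 6 members were called in placebo foci (0 higher and 2 lower) where 8.22% of all genes were called (2.84% higher and 5.38% lower). In rapamycin foci 2 were called, both lower, where 6.53% of all genes were called (1.6% higher and 4.93% lower). In AAF/PH liver 4 were called, 2 in each direction, where 20% of all genes were called (7.54% higher and 12.5% lower). Against AAF/PH liver, 2 members were lower in placebo foci, where 4.19% of all genes were called (2.62% higher and 1.57% lower), and 1 was lower in rapamycin foci, where 4.01% were called (2.14% higher and 1.87% lower). Between rapamycin and placebo foci limma called 0 of the 6 members and 0% of all genes, while 0 members and 483 genes had an unadjusted p under 0.05. The median difference of the 6 members on the log2 scale was 0.04, -0.21, 0.03, -0.27, -0.25 and 0.03 in these 6 comparisons in turn, beside 0.04, 0.07, 0.12, -0.05, -0.01 and 0.01 over all genes. The 3 comparisons with normal liver share its 3 animals and both comparisons with AAF/PH liver share those 3 animals, so the comparisons are not independent of each other.

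The arrays' number limits the precision, and no depth applies to them. The intensity medians of the 14 arrays lay between 19.84 and 25.37. The 3 arrays of rapamycin animal 3 had a narrower spread of values, with interquartile ranges of 1.57 to 1.71 on the log2 scale against 1.98 to 2.8 on the other 11 arrays. Scaling changed the balance of calls over all genes. In AAF/PH liver 37.7% of the called genes were higher as deposited and 20% after median centring of the arrays, and in rapamycin foci against normal liver these shares were 24.5% and 10%. Median centring shifted the median difference of all genes by up to 0.19. The summed intensity of 9 biliary and oval cell markers was 183.7 to 200.7 in normal liver, 529.2 to 792.2 in AAF/PH liver, 485.5 to 812.7 in placebo foci and 256.8 to 515.2 in rapamycin foci. That of 10 hepatocyte markers was 34470 to 37870, 19740 to 22280, 24310 to 29320 and 21750 to 33690 in the same order, so that hepatocyte transcripts were present in the samples labelled oval cells.

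**Figure D1:**
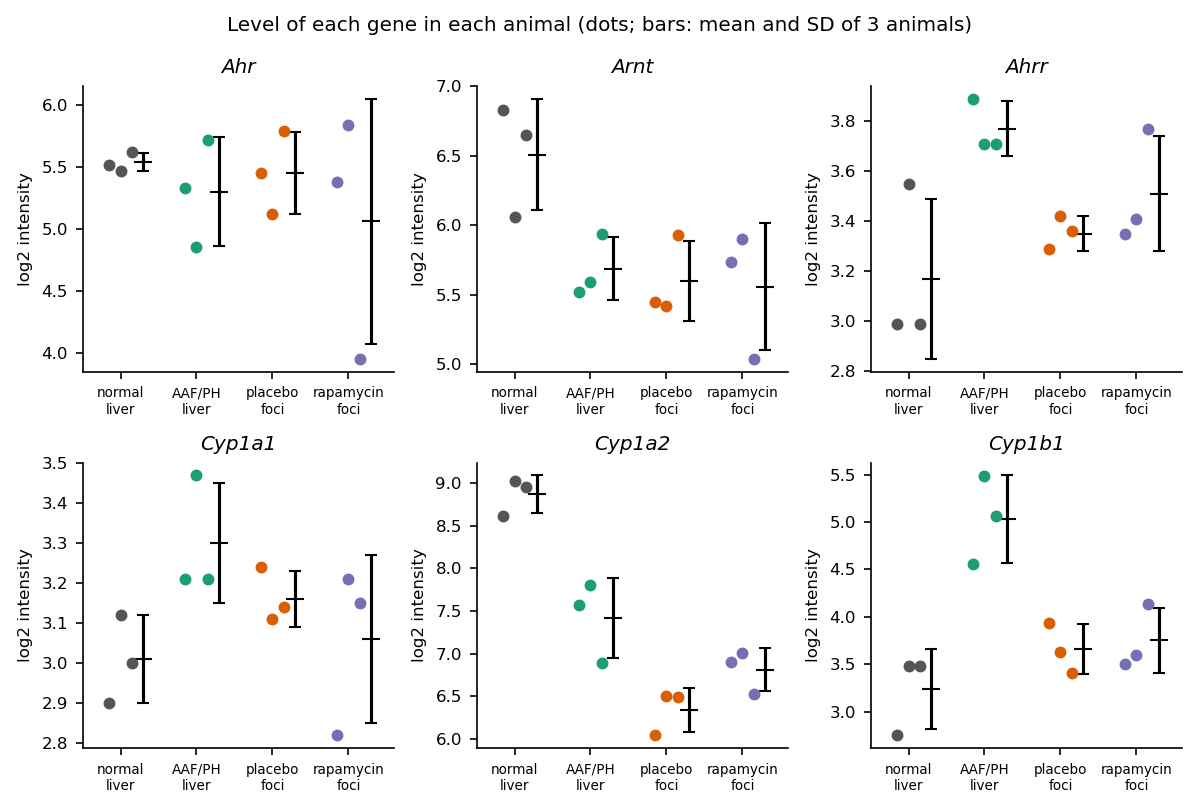
Log2 array intensity of the 6 genes (one panel each, each with its own vertical axis) in normal liver, AAF/PH liver, placebo foci and rapamycin foci; dots are animals and the bars beside them give the mean and SD of 3 animals. Cyp1a2 was highest in the 3 normal animals and Cyp1b1 in the 3 AAF/PH animals, and the Ahr dot at 3.95 is rapamycin animal 3.

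Ahr, the receptor itself, was called in no comparison, and 1 animal read far below the rest. Its probe set (10889660) read 45.88, 44.36 and 49.07 in normal liver and 40.35, 28.77 and 52.79 in AAF/PH liver. The placebo foci read 43.61, 34.75 and 55.25 and the rapamycin foci 41.77, 57.46 and 15.49. The groups overlapped in every comparison, and the value of 15.49 in rapamycin animal 3 was the lowest of the 12. The 3 arrays of that animal gave 16.01, 11.86 and 19.56, so the low reading came back in the new laser capture. On the log2 scale the SD over 3 animals was 0.07 in normal liver and 0.99 in rapamycin foci.

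No comparison of Ahr passed the limma test. The log2 difference from normal liver was -0.08 in placebo foci (95% interval -0.88 to 0.71, adjusted p = 0.928), -0.48 in rapamycin foci (-1.27 to 0.32, adjusted p = 0.395) and -0.23 in AAF/PH liver (-1.03 to 0.56, adjusted p = 0.663). With 3 animals a group these intervals were wide, and each held both falls and rises. Rapamycin and placebo foci differed by -0.39 (-1.19 to 0.41). Without rapamycin animal 3 the difference between rapamycin foci and normal liver was 0.08.

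Arnt, the receptor's dimer partner, which also pairs with hypoxia-inducible factors, was lower in each altered state than in normal liver. Its probe set (10817396) read 113.7, 66.54 and 100.4 in normal liver and 45.88, 48.21 and 61.59 in AAF/PH liver. The placebo foci read 43.61, 42.87 and 61.01 and the rapamycin foci 53.56, 59.79 and 32.95. All 9 altered samples lay below the lowest normal animal, whose value of 66.54 was itself close to the highest of them. Geometric means were 91.25 in normal liver, 51.45 in AAF/PH liver, 48.49 in placebo foci and 47.25 in rapamycin foci, and the last 3 did not differ beyond their spread.

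Arnt fell by 0.91 ± 0.26 (log2 difference ± standard error, n = 3 against 3 animals, limma adjusted p = 0.0423) in placebo foci. It fell by 0.95 ± 0.26 (adjusted p = 0.0422) in rapamycin foci and fell by 0.83 ± 0.26 (adjusted p = 0.0365) in AAF/PH liver. The foci differed from AAF/PH liver by -0.09 (95% interval -0.64 to 0.47) for placebo and -0.12 (-0.68 to 0.43) for rapamycin. The 3 calls lie near the threshold and each depended on single animals. Without normal animal 1 the adjusted p was 0.225 for placebo foci, 0.222 for rapamycin foci and 0.17 for AAF/PH liver, with differences of -0.75, -0.79 and -0.67, and without normal animal 3 it was 0.168, 0.165 and 0.125. In placebo foci the call was also lost without placebo animal 1 (adjusted p = 0.167) or 2 (0.166), in rapamycin foci without rapamycin animal 1 (0.053) or 3 (0.0871), and in AAF/PH liver without AAF/PH animal 1 (0.118) or 2 (0.115). Other settings ended the calls too. In placebo foci these were median centring (adjusted p = 0.0676), an offset of 16 added to every intensity (0.0569), all probe sets in the fit (0.068) and the first array alone of rapamycin animal 3 (0.0549). In rapamycin foci they were the offset (0.0593), all probe sets (0.0734), that first array (0.0529) and a fit of only the 2 groups (0.155), and in AAF/PH liver quantile normalization (0.0585) and all probe sets (0.0552). The replicate number fitted as a block ended all 3 calls (adjusted p = 0.085 in placebo foci, 0.0862 in rapamycin foci and 0.0671 in AAF/PH liver). In bulk samples fewer cells of a type and less RNA per cell cannot be told apart.

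Ahrr encodes the AhR repressor, which competes with AhR for ARNT and is itself an AhR target. Its probe set (10702492) was dim, between percentiles 22.2 and 35.8 of all probe sets by intensity, and no call of presence over background came with the values. It read 7.918, 11.67 and 7.928 in normal liver and 14.87, 13.13 and 13.04 in AAF/PH liver. The placebo foci read 9.76, 10.7 and 10.24 and the rapamycin foci 10.18, 10.64 and 13.66. The 3 AAF/PH animals lay above all normal and placebo animals and overlapped the rapamycin group.

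Ahrr rose in AAF/PH liver by 0.60 ± 0.19 on the log2 scale over normal liver (limma adjusted p = 0.0383), from a geometric mean of 9.016 to 13.65. The differences from normal liver were 0.18 (95% interval -0.22 to 0.59) in placebo foci and 0.34 (-0.07 to 0.74) in rapamycin foci, and neither passed the test. Placebo foci stood at -0.42 (-0.82 to -0.01, adjusted p = 0.311) and rapamycin foci at -0.26 (-0.67 to 0.15) against AAF/PH liver. The call in AAF/PH liver was lost under median centring (0.41, adjusted p = 0.11), quantile normalization (0.38, 0.0963) and the offset of 16 (0.24, 0.0547), and with all probe sets in the fit (adjusted p = 0.0513). The replicate number fitted as a block ended the call too (adjusted p = 0.0704). It was also lost without normal animal 1 (adjusted p = 0.166) or 3 (0.154) and without AAF/PH animal 1 (0.123), 2 (0.0829) or 3 (0.0685).

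Cyp1a1, the classical inducible AhR target, was dim in every group and was called in no comparison. Its probe set (10910376) read 7.438, 8.697 and 8.027 in normal liver and 9.264, 11.08 and 9.227 in AAF/PH liver. The placebo foci read 9.48, 8.615 and 8.805 and the rapamycin foci 7.047, 9.282 and 8.888. These values lay between percentiles 16.4 and 26 of all probe sets by intensity, and the 12 animals spanned 7.047 to 11.08. The AAF/PH animals lay above the 3 normal animals, with a log2 difference of 0.29 (95% interval -0.07 to 0.65, limma adjusted p = 0.23). The difference from normal liver was 0.16 (-0.20 to 0.51) in placebo foci and 0.05 (-0.30 to 0.41) in rapamycin foci.

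Cyp1a2, the constitutive hepatocyte enzyme of the family, showed the largest fall among the members in each comparison with normal liver. Its probe set (10917808) read 393.6, 524.5 and 493.4 in normal liver and 189.7, 223.3 and 118.7 in AAF/PH liver. The placebo foci read 66.00, 90.28 and 89.66 and the rapamycin foci 119.8, 128.9 and 92.22. The normal animals stood clear above all 9 others. The placebo foci were the lowest group and did not overlap the AAF/PH group, while rapamycin animals 1 and 2 lay above, and animal 3 below, the lowest AAF/PH animal. The order of geometric means was normal liver (467), AAF/PH liver (171.3), rapamycin foci (112.5) and placebo foci (81.14), in which AAF/PH liver and rapamycin foci, and both foci groups, were neighbours that did not pass the test.

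Cyp1a2 fell by 2.52 ± 0.24 on the log2 scale in placebo foci (5.76-fold, limma adjusted p = 1.67e-05). It fell by 2.05 ± 0.24 in rapamycin foci (4.15-fold, adjusted p = 0.000246) and fell by 1.45 ± 0.24 in AAF/PH liver (2.73-fold, adjusted p = 0.000705). Each of these calls was kept in all 18 alternative analyses, with differences from -2.65 to -2.21, from -2.22 to -1.67 and from -1.64 to -0.98. Placebo foci were lower than AAF/PH liver at a log2 difference of -1.08 ± 0.24 (adjusted p = 0.0187), a call that was lost under median centring (-0.99, adjusted p = 0.0572) and without AAF/PH animal 1 (adjusted p = 0.0785), AAF/PH animal 2 (-0.89, 0.107) or placebo animal 1 (-0.93, 0.102). Rapamycin foci stood at -0.61 against AAF/PH liver (95% interval -1.12 to -0.09, adjusted p = 0.245). All 3 rapamycin animals were above all 3 placebo animals, with a difference of 0.47 (-0.04 to 0.98) and an adjusted p of 0.985. That separation was narrow and rested on the average of the arrays of rapamycin animal 3. They read 85.3, 87.22 and, in the new laser capture, 105.4, beside 90.28 and 89.66 in placebo animals 2 and 3.

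Cyp1b1, the member best known from mesenchymal cells, was highest in AAF/PH liver. Its probe set (10887947) read 6.716, 11.13 and 11.18 in normal liver and 23.51, 44.61 and 33.29 in AAF/PH liver. The placebo foci read 15.26, 12.37 and 10.60 and the rapamycin foci 11.35, 12.08 and 17.58. The 3 AAF/PH animals stood above all 9 others, and the foci lay at or just above the normal range. Geometric means were 32.68 in AAF/PH liver, 13.41 in rapamycin foci, 12.6 in placebo foci and 9.419 in normal liver, and only AAF/PH liver and rapamycin foci were neighbours in this order that passed the test.

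Cyp1b1 rose by 1.79 ± 0.27 on the log2 scale in AAF/PH liver over normal liver (3.47-fold, limma adjusted p = 0.000333). The call was kept in all 18 alternative analyses, and the difference was 0.94 with an offset of 16. The normal values lay between percentiles 18 and 32.4 of all probe sets, with no call of presence over background, so the size of the fold rests on a dim baseline. Cyp1b1 was lower than in AAF/PH liver in placebo foci, at -1.37 ± 0.27 (adjusted p = 0.00851), and in rapamycin foci, at -1.29 ± 0.27 (adjusted p = 0.0135). With the offset these differences were -0.77 and -0.73. The first of these calls was lost without AAF/PH animal 2 (-1.15, adjusted p = 0.0537). The second was lost without AAF/PH animal 2 (-1.06, 0.0779) or 3 (-1.27, 0.0631), without rapamycin animal 1 (-1.17, 0.0725) and in a fit of only the 2 groups (0.0673). Foci and normal liver differed by 0.42 (95% interval -0.16 to 1) for placebo and 0.51 (-0.07 to 1.09) for rapamycin, and neither passed the test.

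**Figure D2:**
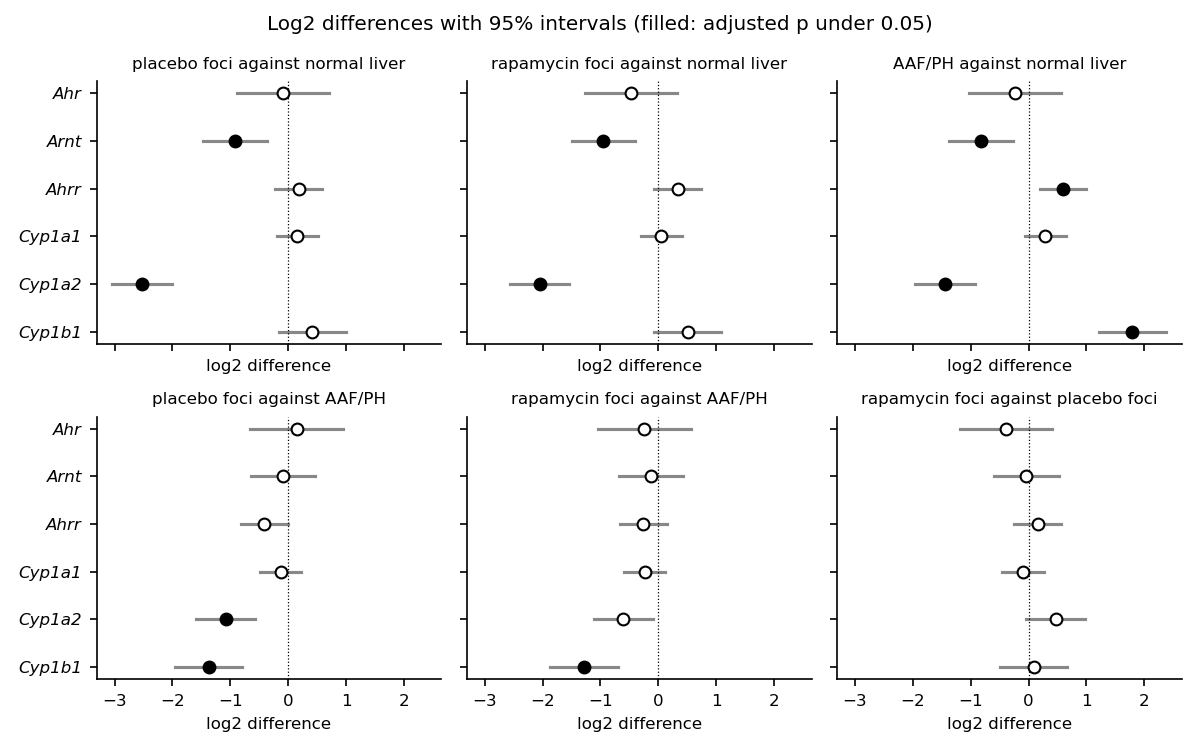
Log2 differences of the 6 genes (horizontal axis) in the 6 comparisons (panels), with 95% intervals from limma; filled circles have an adjusted p under 0.05. Cyp1a2 lay to the left of 0 in the 3 comparisons with normal liver, Cyp1b1 to the right in AAF/PH liver, and no circle is filled between rapamycin and placebo foci.

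Many markers of stellate cells and fibroblasts rose in AAF/PH liver, as Cyp1b1 did. Of 14 such markers, 8 rose and 0 fell in AAF/PH liver (median difference 1.05, against 0.12 over all genes), among them the contractile protein gene Tagln (2.40 ± 0.22) and the collagens Col3a1 (2.64 ± 0.25), Col1a1 (3.55 ± 0.45) and Col1a2 (2.68 ± 0.36). Their summed intensity was 824.1 to 1093 in normal liver, 967.8 to 1368 in placebo foci and 728.5 to 1047 in rapamycin foci. In AAF/PH animals 1, 2 and 3 it was 2032, 5066 and 3052, the same order as the Cyp1b1 values of 23.51, 44.61 and 33.29. Not all markers of the list rose. Mean log2 intensities in AAF/PH and normal liver were 5.4 and 5.58 for Lrat and 6.11 and 6.13 for Reln. In placebo foci 1 of the 14 markers was higher and 0 were lower than in normal liver, a call lost without any 1 of the 6 animals compared, and in rapamycin foci limma called 0 in either direction (2 at an unadjusted p under 0.05). Compared with AAF/PH liver, 6 were lower in placebo foci (3 without placebo animal 2) and 7 in rapamycin foci. No marker of the list was listed at 0. Biliary markers also rose in AAF/PH liver (7 of 9), and in placebo foci (5 of 9, or 3 without normal animal 3 or placebo animal 3) and in rapamycin foci (3 of 9, or 0 without normal animal 1 and 1 without normal animal 2 or 3 or rapamycin animal 1, and 5 without rapamycin animal 3), while Cyp1b1 was called in neither kind of foci against normal liver. Lymphocyte markers summed to 159.2 to 181.3 in normal liver, 240.2 to 264.5 in AAF/PH liver, 185.6 to 235.3 in placebo foci and 220.5 to 232.4 in rapamycin foci, and 2 of 8 were higher in AAF/PH liver (0 without normal animal 1, and 1 without any other of the 6 animals). Of 10 macrophage markers 2 were higher and 1 lower there (0 higher without normal animal 1 or AAF/PH animal 1 and 1 without AAF/PH animal 3; 2 lower without AAF/PH animal 1), with sums of 1388 to 1738 in normal and 1428 to 1691 in AAF/PH liver. Without Acta2, the brightest stellate marker by its mean over all animals, the AAF/PH sums were 1613, 4468 and 2385, against 576.5 to 711.5 in normal liver. In AAF/PH liver itself Col1a1 was brighter, with a geometric mean of 715.2 (315.6 to 2029) against 551 for Acta2. Sums without Col1a1 were not taken, so how far they rest on it was not tested. The part of any of these cell types in the Cyp1b1 values was not tested.

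**Figure D3:**
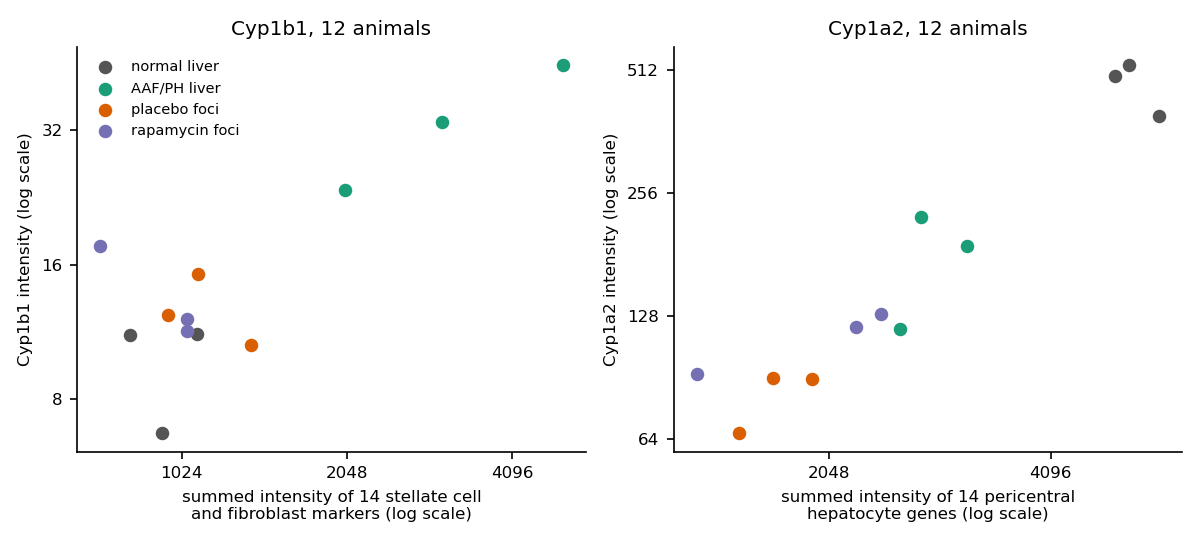
Intensity of Cyp1b1 against the summed intensity of 14 stellate cell and fibroblast markers (left) and of Cyp1a2 against that of 14 pericentral hepatocyte genes (right), both on log axes; each dot is 1 of 12 animals, coloured by group. The 3 AAF/PH animals lie apart at the upper right for Cyp1b1, and the 3 normal animals for Cyp1a2.

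Cyp1a2 fell together with other genes of the hepatocytes around the central vein. Of 14 pericentral genes measured, 8 were lower and 1 higher in placebo foci (median -1.20, against 0.04 over all genes), 8 and 1 in rapamycin foci (-1.05, against 0.07) and 7 and 1 in AAF/PH liver (-0.79, against 0.12). Oat, ornithine aminotransferase, fell, with log2 differences of -2.99 ± 0.28 in placebo foci, -2.27 ± 0.28 in rapamycin foci and -1.66 ± 0.28 in AAF/PH liver. Gulo, the last enzyme of vitamin C synthesis, fell by 2.32 ± 0.27 in placebo foci and stood at -2.1 ± 0.27 and -1.91 ± 0.27 in rapamycin foci and AAF/PH liver, both called. Notum, a secreted Wnt inhibitor and Wnt target, was at -1.43 ± 0.17, -1.34 ± 0.17 and -1.87 ± 0.17, called lower in each. The 1 gene of the list that was higher was the ammonia transporter Rhbg, in all 3 (not called in rapamycin foci without normal animal 1). The summed intensity of the 14 genes was 5012 to 5742 in normal liver, 2563 to 3158 in AAF/PH liver, 1548 to 1945 in placebo foci and 1357 to 2409 in rapamycin foci, with normal liver highest. Much of this sum was Cyp2e1. Without it the other 13 genes summed to 2781 to 3124 in normal liver, 911.3 to 1197 in AAF/PH liver, 860.6 to 1052 in placebo foci and 800 to 1212 in rapamycin foci, so that normal liver still stood apart and the 3 altered groups overlapped, unlike Cyp1a2, whose AAF/PH and placebo animals did not overlap. The share of pericentral tissue in each capture was not tested.

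Most other drug-metabolizing P450 genes of hepatocytes fell too. Of 24 measured, 17 were lower and 1 higher in placebo foci (median -1.35). In rapamycin foci 14 were lower and 0 higher (median -1.14), or 7 and 8 lower without normal animal 1 or 3. In AAF/PH liver 20 were lower and 1 higher (median -1.82), the latter not called without normal animal 1 or 3 or AAF/PH animal 1 or 2. Cyp2c11, the male-specific P450, fell in all 3 states (-4.25 ± 0.43, -2.80 ± 0.43 and -7.00 ± 0.43), as did Cyp3a9 (-3.01 ± 0.26, -2.79 ± 0.26 and -3.02 ± 0.26). The difference was further below 0 than that of Cyp1a2 in 5 of the 24 genes in placebo foci, 3 in rapamycin foci and 16 in AAF/PH liver, a ranking that was not tested.

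Between foci and AAF/PH liver Cyp1a2 lay below 0 while the median of the other P450 genes lay above it. In placebo foci 7 of the 24 were higher than in AAF/PH liver and 1 was lower (median 0.65, against -0.05 over all genes), and in rapamycin foci 9 and 1 (median 0.61, against -0.01), or 14 higher without rapamycin animal 3. Cyp2b2 was higher by 2.47 ± 0.31 and 2.88 ± 0.31, Cyp2c11 by 2.75 ± 0.43 and 4.21 ± 0.43, and Cyp2a2 by 1.73 ± 0.30 and 2.66 ± 0.30. The 1 gene called lower was Cyp2e1, which like Cyp1a2 is a pericentral enzyme and is also in the pericentral list. It read 2003 to 2619 in normal liver, 1639 to 1961 in AAF/PH liver, 687.2 to 892.8 in placebo foci and 557.3 to 1198 in rapamycin foci. Its differences from AAF/PH liver were -1.19 ± 0.25 (limma adjusted p = 0.0111) in placebo foci and -1.03 ± 0.25 (adjusted p = 0.0271) in rapamycin foci, and AAF/PH liver stood at -0.38 (95% interval -0.90 to 0.15) against normal liver. Both Cyp2e1 calls were lost under median centring and without AAF/PH animal 1, the placebo call also without placebo animal 1 and the rapamycin call without AAF/PH animal 2 or 3. The pericentral list as a whole was mixed against AAF/PH liver. Of its 14 genes, 3 were lower and 1 higher in placebo foci (median -0.27), and 2 and 1 in rapamycin foci (median -0.12). Among the 24 P450 genes, Cyp3a23-3a1 lay further below AAF/PH liver in placebo foci than Cyp2e1 (mean log2 intensity 6 against 7.64) but was not called. Whether the zone of a gene goes with the direction of its difference was not tested.

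**Figure D4:**
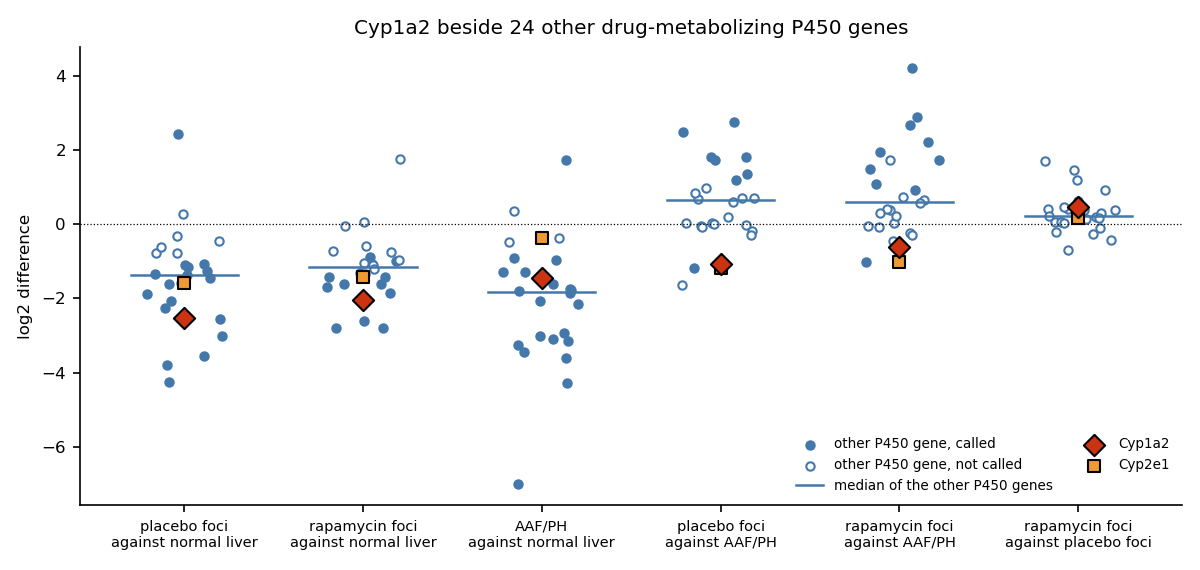
Log2 differences (vertical axis) of 24 other drug-metabolizing P450 genes in the 6 comparisons; filled circles were called by limma, open ones were not, lines mark their medians, the diamond is Cyp1a2 and the square is Cyp2e1, 1 of the 24. In the comparisons with AAF/PH liver the medians of 0.65 and 0.61 lie above 0 and Cyp1a2 and Cyp2e1 below it.

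Target genes of AhR outside the CYP1 family moved in both directions in foci. Of 14 measured, 3 were higher and 1 lower in placebo foci (median 0.13), 2 and 1 in rapamycin foci (0.02), and 0 and 3 in AAF/PH liver (-0.12). Over all genes 8.22%, 6.53% and 20% were called in the same order, with medians of 0.04, 0.07 and 0.12. Nqo1, a quinone reductase that is also a classical NRF2 target, rose by 4.21 ± 0.45 in placebo foci and by 2.94 ± 0.45 in rapamycin foci, and stood at -0.14 ± 0.45 in AAF/PH liver. Aldh3a1, an aldehyde dehydrogenase often induced together with Cyp1a1, rose by 2.79 ± 0.18 and 2.05 ± 0.18, and stood at 0.18 ± 0.18 in AAF/PH liver. Its group ranges were 10.47 to 11.51 in normal liver, 11.11 to 13.85 in AAF/PH liver, 71.86 to 84.77 in placebo foci and 38.71 to 58.36 in rapamycin foci, so both foci groups stood clear of the rest. In normal liver it lay between percentiles 30.4 and 34.2 of all probe sets, so the size of these differences too rests on a dim baseline. In foci, then, Aldh3a1 and Nqo1 were called higher while Cyp1a1 was not called and Cyp1a2 was called lower.

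Between rapamycin and placebo foci limma called 0 of the 14 targets, with 3 at an unadjusted p under 0.05. Aldh3a1 stood at -0.74 (95% interval -1.13 to -0.35, adjusted p = 0.985) with no overlap of the groups, and Nqo1 at -1.27 (-2.23 to -0.31), with rapamycin foci from 76.95 to 447.2 and placebo foci from 446.6 to 669.3.

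The other called targets were Pdk4, Hsd17b2, Slc46a3 and Fgf21. Pdk4, which restrains glucose oxidation, fell by 2.88 ± 0.34 in placebo foci and fell by 2.31 ± 0.34 in rapamycin foci. Hsd17b2, which oxidizes oestradiol, rose by 1.80 ± 0.33 in placebo foci and fell by 2.28 ± 0.33 in AAF/PH liver. There Slc46a3, a lysosomal transporter, fell by 1.26 ± 0.23 and the hormone gene Fgf21 fell by 1.04 ± 0.27. In the comparison with AAF/PH liver 4 of the 14 targets were higher and 1 lower in placebo foci, and 3 and 1 in rapamycin foci. Without rapamycin animal 3 the counts of higher targets in rapamycin foci were 4 over normal liver and 5 over AAF/PH liver. Without normal animal 2 the lower targets in placebo foci numbered 2, and without rapamycin animal 1 or 2 those in rapamycin foci did too.

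Genes of the proteins that hold, assist or shut off AhR were called at about the share of all genes in AAF/PH liver and not in foci. Of 15 chaperone, coactivator and brake genes measured, 0 were called in either direction by limma in placebo or rapamycin foci (2 and 4 at an unadjusted p under 0.05; medians -0.21 and -0.32), and 3 fell in AAF/PH liver (median -0.19). Over all genes the shares called were 8.22%, 6.53% and 20% in the same order, so these counts do not set the list apart. These were the coactivators Ncoa2 (-1.06 ± 0.29) and Ncoa1 (-0.67 ± 0.22) and Cul4b (-0.84 ± 0.26), a cullin of ubiquitin ligases. The count was 0 without normal animal 1 or 3 or AAF/PH animal 1 or 2, and 1 without normal animal 2. Without rapamycin animal 2, 4 were lower in rapamycin foci.

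The next list held 13 relatives of Ahr and Arnt, which were bHLH-PAS genes and the Per genes, whose proteins share the PAS domain. Npas2 was called in all 3 altered states and 4 others in 1 or 2 of them. Npas2, a paralogue of Clock, fell, with log2 differences of -1.65 ± 0.20 in placebo foci, -1.19 ± 0.20 in rapamycin foci and -1.98 ± 0.20 in AAF/PH liver. Per3 rose by 1.07 ± 0.20 in placebo foci and 0.99 ± 0.20 in AAF/PH liver. Clock, which encodes a core circadian factor, fell by 1.29 ± 0.30 in AAF/PH liver and Epas1, a hypoxia-inducible factor that pairs with ARNT, fell by 1.23 ± 0.38. Per1, the other gene called higher there, stood at 1.03 ± 0.33, so the genes of the list called higher than in normal liver were all Per genes. In all, 1 was higher and 1 lower in placebo foci, 0 and 1 in rapamycin foci (2 lower without rapamycin animal 2), and 2 and 3 in AAF/PH liver (1 higher without normal animal 1, 2 or 3 or AAF/PH animal 2 or 3). Over all genes the shares called were 8.22%, 6.53% and 20% in the same order. The list medians were 0.07, 0.23 and 0.34, beside 0.04, 0.07 and 0.12 over all genes. The labels do not give the hour at which livers were taken.

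Enzymes that activate, conjugate or hydrolyse aromatic amides such as AAF, besides the CYP1 family, fell mainly in AAF/PH liver. Of 14 measured, 8 were lower and 2 higher there (median -1.32, against 0.12 over all genes), 3 and 3 in placebo foci (-0.52) and 2 lower and 1 higher in rapamycin foci (-0.84). Sult1c3, of a sulfotransferase family that conjugates N-hydroxy-AAF, fell, with differences of -5.39 ± 0.46 in AAF/PH liver, -2.89 ± 0.46 in placebo foci and -2.41 ± 0.46 in rapamycin foci. Fmo1, a flavin monooxygenase, stood at -3.21 ± 0.24, -2.15 ± 0.24 and -2.45 ± 0.24, called lower in each. Ephx1, microsomal epoxide hydrolase, rose by 1.17 ± 0.32, 1.69 ± 0.32 and 1.29 ± 0.32. In AAF/PH liver Ces1d, a carboxylesterase, fell by 3.68 ± 0.33 and Cyb5r3, cytochrome b5 reductase, fell by 2.75 ± 0.33, and in placebo foci Gstm1, a glutathione transferase, rose by 0.88 ± 0.19. Relative to AAF/PH liver 8 were higher and 2 lower in placebo foci, and 6 and 1 in rapamycin foci, or 11 higher without rapamycin animal 3.

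Several of these counts depended on single animals. The 2 higher in AAF/PH liver were 1 without normal animal 1 or 3 or any AAF/PH animal. The 1 higher in rapamycin foci was Ephx1, which was not called without any 1 of the normal animals or without rapamycin animal 1 or 2, and the count was 2 without rapamycin animal 3. The 2 lower in rapamycin foci were 4 without rapamycin animal 1 and 8 without rapamycin animal 2. The 8 higher in placebo foci against AAF/PH liver were 5 without AAF/PH animal 3 or placebo animal 1 or 2.

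For each member the 3 genes of highest Pearson correlation over the 12 animals were found among all genes; the animals fall into 4 groups and share a platform, so these values describe likeness and carry no test. Oat was nearest to Cyp1a2 (r = 0.987, and 0.85 after each group's mean was taken out), followed by Slc43a3 (0.966 and 0.43) and Nrep (0.963 and 0.48). Oat read 343 to 379 in normal liver, 67.01 to 150.2 in AAF/PH liver, 34.01 to 57.37 in placebo foci and 65.20 to 86.14 in rapamycin foci, so its groups had the order of those of Cyp1a2. Nearest to Cyp1b1 were Arhgef25 (0.98), Cthrc1, which encodes a secreted protein of matrix-forming cells (0.969), and Pmepa1, a TGF-beta target (0.966), with 0.90, 0.86 and 0.83 within groups. Nearest to Ahr were Dync1i2 (0.978), Copb2 (0.974) and Mbd2 (0.973), each at 0.98 within groups. For Arnt they were Nbn (0.986), Mapkap1 (0.979) and Adgrl2 (0.977), with 0.98, 0.95 and 0.94 within groups. For Ahrr they were Rad18 (0.942), Asb2 (0.939) and Ildr1 (0.938), with 0.9, 0.9 and 0.86. Rapamycin animal 3, with its low Ahr value and its narrow arrays, is 1 of the 12, and its part in these values was not tested. Over the 12 animals the highest values for Cyp1a1 were lower, at 0.887 for Hnmt, 0.87 for Cbr3 and 0.869 for Pwwp2a. Among the members themselves the highest r was 0.77, between Cyp1a1 and Cyp1b1, and the lowest was -0.73, between Arnt and Ahrr; that between Cyp1a1 and Cyp1a2, neighbours on the chromosome, was -0.22.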

How the data were processed

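Affymetrix Rat Gene ST 1.0 arrays were read for 14 RNA samples of 12 rats. The authors' deposited file gives linear intensities, between 2.143 and 14037.8, for 28826 probe sets. The submitters' processing notes name Partek 6.6 and RMA (robust multi-array average), whose roles and settings are not given in the sources used here. Log2 was taken here of the deposited intensity values with no pseudocount, where log2 values had first been assumed. A single gene symbol was annotated for 15209 probe sets, several for 306 and none for 13311. Each member had 1 probe set with a single symbol, and all 6 matched RefSeq by Entrez identifier. Where a gene had several, the probe set of highest mean was taken, which left 14497 genes.

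A single limma model (limma 3.58.1 in R 4.3.3, the package data.table, version 1.17.8; lmFit, eBayes, 2-sided) held 4 group means over 12 animals. It had 8 residual degrees of freedom and 6.38 prior ones, and Benjamini-Hochberg adjustment ran over all genes. Whether same-group animals were housed or processed apart is not stated, so p-values measure the spread between these samples. Errors are standard errors of the fit and intensities of groups are geometric means. Every list names up to 4 of its genes, those of smallest p, and each member the 3 genes of highest correlation, passing over predicted, olfactory, vomeronasal, microRNA and pseudogene symbols. The members and gene lists were chosen with earlier results of these data known. Genes named for a list's lone call in a direction, group ranges the ranks of Cyp1a2 among P450 genes and marker sums without their brightest gene were added after values were seen. Simulated data were used to test the calculations.

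Alternatives were a low-intensity filter, the mean over probe sets, all probe sets, median centring, quantile normalization, an offset of 16, array quality weights, each animal left out, 3 other ways of using the arrays of rapamycin animal 3, a fit of only the 2 groups, and the replicate number as a block.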

Additional observations from a re-analysis of the deposited data

How the results depend on the processing

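Across the alternatives the members' differences kept their direction and their side of the threshold in 562 cases, lost the call in 44, gained it in 2 and turned in 28. The calls of Cyp1a2 against normal liver in the 3 states and of Cyp1b1 in AAF/PH liver held in all 18 alternatives. Members called in placebo foci against normal liver numbered 1 in place of 2 under median centring, the offset of 16, all probe sets, the first array of rapamycin animal 3 and the replicate block, and 1 to 2 with single animals left out. In rapamycin foci against normal liver they numbered 1 in place of 2 under the offset, all probe sets, that first array, a fit of only the 2 groups and the block, and 1 to 2 with animals left out. In AAF/PH liver they numbered 2 in place of 4 under quantile normalization, all probe sets and the block, and 2 to 4 with animals left out. Against AAF/PH liver, placebo foci had 1 in place of 2 under median centring and 0 to 2 with animals left out, and rapamycin foci 0 in place of 1 in a fit of only the 2 groups and 0 to 1 with animals left out. Array quality weights, whose estimate stopped before its convergence tolerance, called Cyp1a1 in AAF/PH liver (0.27) and Ahrr in placebo foci against AAF/PH liver (-0.46).

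Differences that turned were not called in either direction. With array weights Ahr stood at 0.09 in rapamycin foci against normal liver, 0.33 against AAF/PH liver and 0.30 against placebo foci, Arnt at 0.17 and 0.32 in the last 2, and Cyp1a1 at 0.03 and Cyp1b1 at -0.11 against placebo foci. Cyp1a1 in rapamycin foci against normal liver was -0.12 under median centring and -0.13 under quantile normalization, Cyp1b1 against placebo foci 0.00 under the latter, and Arnt in placebo foci against AAF/PH liver 0.00 under median centring. With animals left out Ahr ranged from -0.25 to 0.08 (placebo foci) and -0.87 to 0.08 (rapamycin foci) against normal liver, from -0.08 to 0.36 and -0.63 to 0.31 against AAF/PH liver, and from -0.78 to 0.16 between foci. Arnt ranged from -0.25 to 0.04 and -0.29 to 0.14 against AAF/PH liver and from -0.21 to 0.22 between foci. Cyp1a1 ranged from -0.02 to 0.18 in rapamycin foci against normal liver and -0.18 to 0.02 between foci, and Cyp1b1 from -0.11 to 0.23 between foci. The causes were not tested.

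Counts over all genes moved more. The numbers called against normal liver were 1192 (placebo), 947 (rapamycin) and 2900 (AAF/PH). With array weights 6443 and 7996 were called in the first and last, and in a fit of only the 2 groups 2297, 210 and 5115. Without normal animal 1 they were 606, 224 and 1552, and rapamycin foci reached 2051 without rapamycin animal 2. Against AAF/PH liver 608 (placebo) and 581 (rapamycin) became 399 and 375 under median centring, 1040 and 1160 under quantile normalization, 2011 and 1264 with weights and 1334 and 204 in fits of only the 2 groups, and 2058 without rapamycin animal 3. Between foci 0 became 1 with weights and 3 without rapamycin animal 3. The labels do not say whether replicate numbers pair the samples, and with 3 animals a group the values cannot decide it. Of 18 pairs of same-numbered samples, 7 deviated together with a correlation over 0.1 (range -0.68 to 0.38). Among normal, AAF/PH and placebo samples the correlations were 0.18 to 0.35 for numbers 2 and 3 and -0.21 to 0.02 for number 1. Pairs with a rapamycin sample ranged from -0.68 to 0.38. With the number as a block, 555 in place of 947 genes were called in rapamycin foci against normal liver. The low-intensity filter removed Ahrr and Cyp1a1, whose dim signal limits what can be read from them.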

Other observations

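Some nuclear receptors and regulators of other drug-metabolizing genes fell in each altered state. Of 11 measured, 7 fell and 0 rose in AAF/PH liver (median log2 difference -1.18, against 0.12 over all genes), 4 fell in placebo foci (-0.69) and 3 in rapamycin foci (-0.53; 0 without normal animal 1, 1 without normal animal 3 and 6 without rapamycin animal 2). Nr1h4, the bile acid receptor FXR, fell, with differences of -1.92 ± 0.29 in AAF/PH liver, -1.55 ± 0.29 in placebo foci and -1.24 ± 0.29 in rapamycin foci. Rxra, the partner of many of these receptors as ARNT is of AhR, fell too (-1.22 ± 0.22, -1.09 ± 0.22 and -0.81 ± 0.22), and Esr1, the oestrogen receptor, stood at -1.18 ± 0.17 in AAF/PH liver and -0.86 ± 0.17 in placebo foci, both called. Ppara, the fatty acid sensor, fell by 1.63 ± 0.26 in AAF/PH liver and was higher in foci than there by 1.07 ± 0.26 (placebo) and 1.23 ± 0.26 (rapamycin).

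Many genes of the hepatocytes around the portal vein, at the other end of the lobule from Cyp1a2, fell too. Of 13 measured, 9 were lower and 0 higher in placebo foci (median -1.18, against 0.04 over all genes; 5 lower without normal animal 1 or 3 or placebo animal 2), 6 and 0 in rapamycin foci (-0.98; 2 without normal animal 1, 3 without normal animal 3 and 10 without rapamycin animal 2), and 7 and 1 in AAF/PH liver (-1.07). Apoa4, an apolipoprotein, fell in these states (-2.22 ± 0.19, -1.43 ± 0.19 and -3.0 ± 0.19), and so did Gls2, liver glutaminase (-1.46 ± 0.26, -1.43 ± 0.26 and -2.48 ± 0.26). The gene called higher in AAF/PH liver was Asl, argininosuccinate lyase, at 0.86 ± 0.27, a call that was lost without any 1 of the 6 animals compared and under median centring.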
